A study of Mus musculus with 4 samples.

Results

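The genes described here encode the proteasome, the E2 enzymes and ubiquitin ligases that feed it, and the deubiquitinases that oppose the ligases. They were taken by gene symbol alone, from the names beginning Psm, Ube2, Ube3, Herc, Nedd4, Rnf, Fbxl, Fbxo, Fbxw, Klhl, Cul, Usp and Otud, with the interferon-linked genes Usp18, Psmb8, Psmb9 and Psmb10 left out. This gave 150 of the 6940 genes in the table. By name they fall into 6 groups, with 19 proteasome genes, 18 E2 enzymes, 7 HECT ligases, 29 RING-finger genes, 43 genes of cullin-RING ligases and 34 deubiquitinases. All 150 are annotated as protein coding. A name is not always a function, and Psmc3ip, a meiotic recombination factor, and Usp6nl, a regulator of membrane traffic, are in the set by name only.

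RNA was sequenced from mouse oligodendrocytes, which wrap axons in myelin, in 4 libraries. In the 2 conditional knockout libraries (cKO) the genotype was Olig1cre/+;Zdhhc5fl/fl, so that Cre made from the Olig1 locus deletes Zdhhc5, an enzyme that attaches palmitate to proteins. In the 2 control libraries (Ctrl) it was Zdhhc5fl/fl without Cre. Both genotypes were C57BL/6 pups of postnatal day 5. Cortical cells of both were captured on dishes with GalC and then O4 antibodies, grown for 6 days and differentiated for 24 h with thyroid hormone (T3, 40 ng/mL). The cKO cells alone carried Cre in place of part of the Olig1 locus, so effects of Cre, of the changed Olig1 allele and of Zdhhc5 loss cannot be told apart. Nothing in the labels states that replicate libraries stem from separate animals or cultures, so the p-values measure the spread between these libraries, which may be technical. Zdhhc5 itself was not analysed here.

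Ubiquitin is activated by an E1 enzyme, passed to an E2 enzyme, and joined to a target protein by a ligase, which is the step that chooses the target. HECT ligases carry the ubiquitin themselves, RING-finger ligases bring the E2 and the target together, and cullin-RING ligases do so with a cullin scaffold and an exchangeable adaptor, such as an F-box or a Kelch protein. Deubiquitinases take ubiquitin off again, and the proteasome, a barrel of proteases with a regulatory cap, unfolds and cuts the marked proteins. In the oligodendrocyte lineage, ubiquitin-dependent turnover is known to take part in cell-cycle exit and in the control of differentiation.

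Values are normalised reads, that is, the read count of a gene over its library's size factor. A log2 fold change is the difference in mean log2(normalised reads + 1), cKO minus Ctrl. A gene was called when the limma test, adjusted by Benjamini-Hochberg over 17347 genes, gave an adjusted p under 0.05. The table lists only genes that the authors had called, which were 40.0% of those 17347, and all 150 were called again here. The listing itself therefore says nothing of a single gene, and the direction and size are what is described. Among protein-coding genes of RefSeq with names of these kinds, expressed in these cells or not, 149 of 364 (40.9%) were listed, close to the 40.0% of all genes tested. The share was 54.0% for deubiquitinases (34 of 63), 39.6% for the proteasome (19 of 48) and 70.0% for the few HECT ligases (7 of 10). The listed genes held 20068016 and 13672254 reads in the cKO libraries and 17077509 and 16773675 reads in the Ctrl libraries.

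As deposited, most proteasome genes and most genes of ligation and deubiquitination stood on opposite sides of zero. Of the 19 proteasome genes, 15 were higher and 4 lower in cKO. Of the 79 ligase genes (HECT, RING-finger and cullin-RING together), 20 were higher and 59 lower, and of the 34 deubiquitinases 5 were higher and 29 lower. E2 enzymes, with 5 higher (27.8%) and 13 lower (72.2%), were split much like the ligases (25.3% and 74.7%). Within the ligases, the 7 HECT genes were more even, with 3 higher and 4 lower. In all, 45 members (30.0%) were higher and 105 (70.0%) lower, against 46.7% higher and 53.3% lower of all listed genes. Values of the cKO and Ctrl libraries did not overlap for any member. The same held for all but 1 of the 6940 listed genes, so it sets no member apart.

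The changes of the proteasome genes were small. Their median log2 fold change was 0.25, against -0.39 for ligases, -0.45 for deubiquitinases, -0.27 for E2 enzymes and -0.22 for all listed genes. A call with at least a 1.5-fold change was made for 1 proteasome gene upward and for none downward. For ligases it was made for 3 upward and 27 downward (34.2%), and for deubiquitinases for none upward and 14 downward (41.2%). Over all members it was made for 6 upward (4.0%) and 43 downward (28.7%), against 17.4% upward and 27.6% downward of all listed genes. The members thus had few large rises, while their share of large falls was near the background.

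Each library gave the same picture for the groups. Relative to the Ctrl mean, the median proteasome gene stood at 0.26 and 0.24 on the log2 scale in the 2 cKO libraries, the median ligase at -0.41 and -0.45, and the median deubiquitinase at -0.44 and -0.48. Summed normalised reads of the proteasome genes were 49139 and 48751 in cKO and 44235 and 44487 in Ctrl. Those of the ligases were 117314 and 114975 in cKO and 142769 and 142991 in Ctrl, and those of the deubiquitinases 50736 and 50272 in cKO and 66405 and 67071 in Ctrl. In neither genotype did the libraries differ by as much as the genotypes did. The genes were listed for a difference between these same libraries, so this agreement is no separate support.

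**Figure D1:**
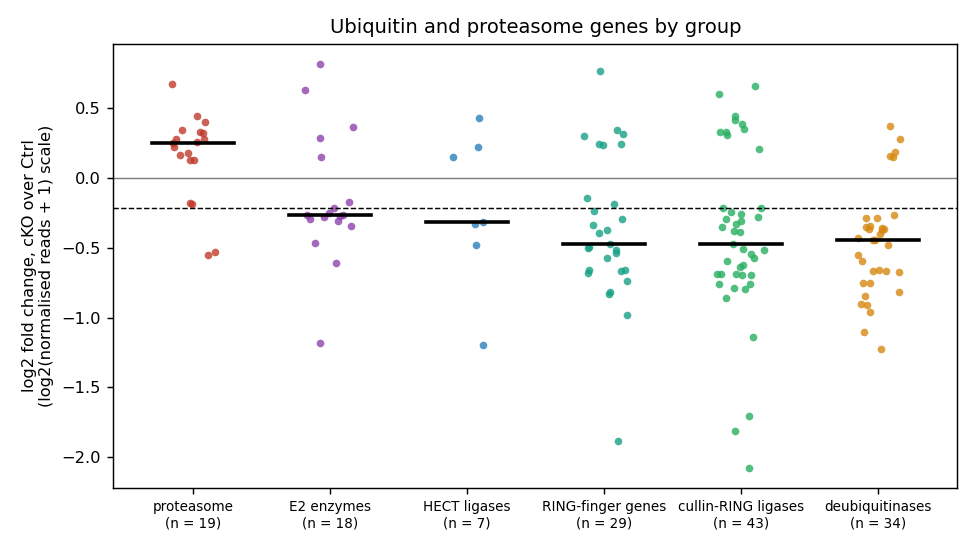
Log2 fold change (cKO over Ctrl) of each of the 150 members, in 6 groups along the x axis. Each point is a gene, black bars are group medians and the dashed line is the median of all listed genes at -0.22; the proteasome is the only group with its median above zero, at 0.25.

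The choice of scaling moves all of these values together. With relative log expression factors computed from the listed genes, the median of all listed genes moved up by 0.19, to -0.03. The proteasome median was then 0.44, the ligase median -0.20 and the deubiquitinase median -0.25, and 45 members were called higher and 75 lower, against 46.8% higher and 42.0% lower of all listed genes. The distance between the groups was kept, since such a factor shifts every gene of a library alike.

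The base composition and length of the genes moved with the result. GC content is the share of G and C bases in a gene's longest annotated transcript. Across 6934 listed genes with a known GC content, the correlation of log2 fold change with GC content was 0.45. With log2 gene length it was -0.27 (descriptions across genes of the same 4 libraries). Over the 150 members these were 0.57 and -0.48. The median GC content was 51.5% for proteasome genes, 46.0% for ligases, 47.1% for deubiquitinases and 49.4% for all listed genes. The median exonic length was 2607 bases for proteasome genes, 5318 for ligases, 8078 for deubiquitinases and 4892 for all listed genes. For E2 enzymes these medians were 45.2% and 4680 bases. Proteasome genes were thus shorter and richer in G and C than the E2 enzymes, ligases and deubiquitinases. That is the direction that goes with higher values in cKO over the whole table.

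Both the coding sequence and the 3′ untranslated region of proteasome genes were short. In the annotated transcripts the median coding length was 792 bases for proteasome genes, 1713 for ligases, 2878 for deubiquitinases and 1449 for all listed genes. For E2 enzymes it was 486 bases, shorter still, and 13 of those 18 genes were lower in cKO. The median 3′ untranslated region was 296 bases for proteasome genes, 1753 for ligases, 2035 for deubiquitinases and 1458 for all listed genes. For E2 enzymes it was 1658 bases. At the third position of codons, where base composition is freest, the median GC content was 61.7% for proteasome genes, 53.8% for ligases and 49.7% for deubiquitinases. It was 60.9% for all listed genes, close to the proteasome value, and 51.5% for E2 enzymes.

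The first 120 coding bases of 4 members are shown as examples from the proteasome and the cullins. They were picked because they differ in GC content, and are not typical of their groups. Psmb5 and Psmc6 encode subunits of the same proteasome, and Cul7 and Cul3 are both cullin scaffolds. In each pair the first was higher and the second lower in cKO. The sequences are from GENCODE transcripts on GRCm38, 5′ to 3′, with the start codon in capitals.
Psmb5: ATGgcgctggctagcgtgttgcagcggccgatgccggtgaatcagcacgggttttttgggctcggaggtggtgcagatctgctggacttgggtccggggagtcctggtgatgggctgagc
Psmc6: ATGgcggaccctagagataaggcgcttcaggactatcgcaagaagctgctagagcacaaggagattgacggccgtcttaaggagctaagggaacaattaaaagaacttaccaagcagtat
Cul7: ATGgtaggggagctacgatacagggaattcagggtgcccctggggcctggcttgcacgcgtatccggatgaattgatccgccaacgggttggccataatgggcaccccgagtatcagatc
Cul3: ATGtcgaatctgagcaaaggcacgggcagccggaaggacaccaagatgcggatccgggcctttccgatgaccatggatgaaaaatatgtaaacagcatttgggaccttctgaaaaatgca
The GC content of these windows was 63.3% in Psmb5 against 47.5% in Psmc6, and 58.3% in Cul7 against 49.2% in Cul3. Over the whole coding sequence it was 57.8% in Psmb5 and 41.8% in Psmc6, and 58.3% in Cul7 and 39.9% in Cul3.

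Within bins of like GC content the groups could be set side by side. Below 42% GC, 0 of 31 members were higher in cKO, against 6.57% of the 1050 listed genes in that bin. At 54% or more, 20 of 25 members (80.0%) were higher, against 78.5% of 1931 listed genes. Between 42% and 46%, 1 of 4 proteasome genes, 2 of 22 ligases and 0 of 9 deubiquitinases were higher, against 18.3% of listed genes. Between 46% and 50%, 4 of 4 proteasome genes, 3 of 15 ligases and 0 of 9 deubiquitinases were higher, against 41.0% of listed genes. Between 50% and 54%, 6 of 6 proteasome genes, 4 of 10 ligases and 2 of 5 deubiquitinases were higher, against 66.3% of listed genes. At the ends of the range the members' shares were near those of other genes of their composition, and between 42% and 46% most genes of all 3 groups were lower. From 46% to 54%, in bins that hold few members, all proteasome genes were higher and most ligases and deubiquitinases lower. These bins do not match the genes for length. Below 2500 bases, 9 of 9 proteasome genes and 8 of 11 ligases were higher, against 75.1% of listed genes. From 2500 to 5000 bases, 4 of 7 proteasome genes, 4 of 23 ligases and 3 of 7 deubiquitinases were higher, against 56.4% of listed genes.

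**Figure D2:**
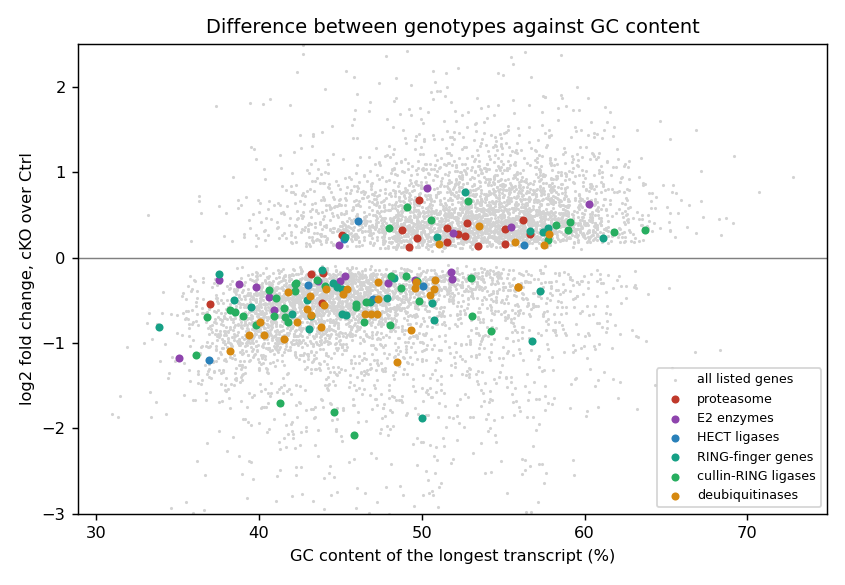
Log2 fold change (cKO over Ctrl, y axis) against GC content of the longest transcript (per cent, x axis) for the members, coloured by group. All listed genes are in grey, and grey genes beyond the y axis are not drawn. Points rise from left to right, with a correlation of 0.57 over the 150 members and 0.45 over the listed genes.

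After removal of the GC and length trends from each library, keeping its mean, the distance between the groups shrank. The proteasome median was 0.65 above the ligase median as deposited, 0.24 above it with the GC trend removed, 0.24 with the length trend removed and 0.10 with both removed. Its distance from the deubiquitinase median was 0.70 as deposited, 0.38 and 0.17 with 1 trend removed and 0.12 with both. With both removed the medians were -0.08 for the proteasome, -0.18 for ligases, -0.20 for deubiquitinases, -0.01 for E2 enzymes and -0.07 for all listed genes. Then 22 members (14.7%) were called higher and 68 (45.3%) lower, against 28.3% higher and 40.9% lower of all listed genes. Of the 19 proteasome genes, 3 (15.8%) were then called higher and 6 (31.6%) lower. The direction turned for 51 of the 150 members, while 12 rises and 51 falls were still called. With the GC trend alone removed, 7 proteasome genes were called higher and 3 lower, beside 1997 and 2834 of the 6940 listed genes. With the length trend alone removed, 3 were called higher and 9 lower, beside 2375 and 3225 listed genes. What underlies these trends was not tested.

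**Figure D3:**
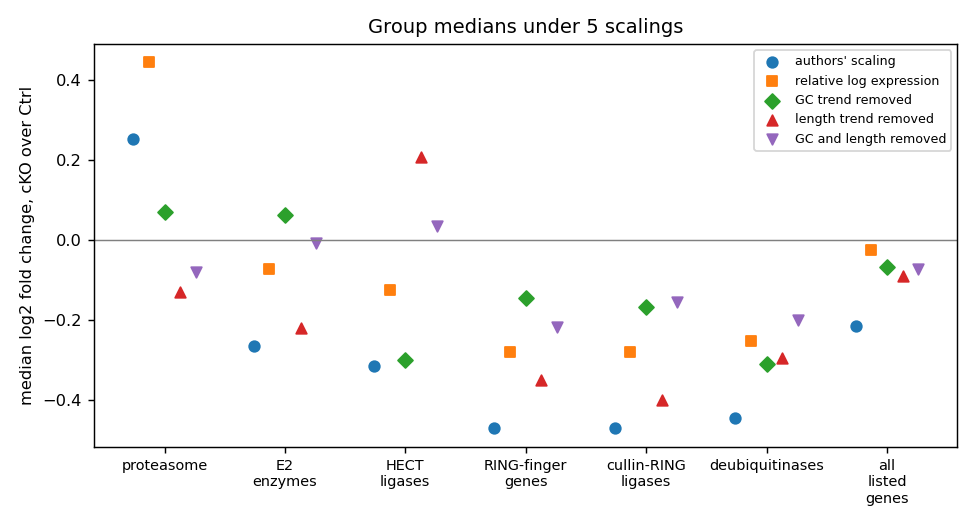
Median log2 fold change (cKO over Ctrl, y axis) of the 6 groups and of all listed genes, as deposited, with relative log expression scaling and with the GC trend, the length trend or both removed. The proteasome median is 0.25 as deposited and -0.08 with both removed, and the deubiquitinase median -0.45 and -0.20.

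Markers of the cells in the dish also moved with genotype. Of 15 oligodendrocyte lineage markers, 14 were listed and all 14 were lower in cKO, with a median log2 fold change of -1.68 and summed normalised reads of 107543 and 109468 in cKO and 432783 and 435152 in Ctrl. Olig1, whose locus carries Cre in the cKO cells, had 7250.5 and 6438.4 normalised reads in cKO and 12036 and 11944.6 in Ctrl. Of 10 pericyte and fibroblast markers, 9 were listed and 9 higher, with sums of 12317 and 11909 in cKO and 4001 and 3808 in Ctrl. Of 10 astrocyte markers, 9 were listed, 7 higher and 2 lower (median log2 fold change 0.63), with sums of 736790 and 730110 in cKO and 490374 and 491566 in Ctrl. Most of these sums was Gfap, with 557246.7 and 553584.2 in cKO and 351481 and 352111 in Ctrl. Of 10 microglia markers, 4 were listed and 4 higher, with sums of 2009 and 2109 in cKO and 1322 and 1298 in Ctrl. Neuron markers (9 of 10 listed, 7 higher, 2 lower) had a median log2 fold change of 0.67. Their sums were nonetheless 17204 and 17088 in cKO and 18236 and 18534 in Ctrl. The lower marker Map2 held much of these, with 7543.6 and 7212.1 in cKO and 10562 and 10542.6 in Ctrl. Endothelial markers (4 of 10 listed, 2 higher, 2 lower) summed to 382.9 and 408.2 in cKO and 449.0 and 452.0 in Ctrl. The Ctrl cells held the defining oligodendrocyte markers, and astrocyte markers were abundant in both genotypes. In these bulk libraries fewer cells of a type and less RNA per cell cannot be told apart, and the part of these shifts in the values of the ubiquitin and proteasome genes was not tested.

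In the core particle of the proteasome, the barrel that cuts proteins, 6 genes were listed and 5 of them were higher in cKO, with a median log2 fold change of 0.20. Psmb5, the subunit with the chymotrypsin-like activity and the target of the drug bortezomib (ENSMUSG00000022193, chr14:54614119-54618022, minus strand, GRCm38), had 3067.6 and 2922.6 normalised reads in cKO and 2473.0 and 2462.8 in Ctrl. Both cKO libraries lay above both Ctrl libraries, by 1.21-fold (log2 fold change 0.28, SE 0.05, adjusted p 9.2e-06 by limma). With the GC and length trends removed its sign turned, to -0.29 (limma adjusted p 9.04e-06). Psma1, an outer-ring subunit, was the only core gene lower in cKO, with 2144.1 and 2307.9 normalised reads in cKO and 2492.0 and 2548.4 in Ctrl. Its log2 fold change of -0.18 (limma adjusted p 0.0027) did not hold with relative log expression scaling, where it was 0.01 (limma adjusted p 1).

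The regulatory cap recognises ubiquitin and unfolds the protein, and its subunits differed in both directions. Psmc6, 1 of the ring of ATPases that pulls the protein in, had 1148.8 and 1200.8 normalised reads in cKO and 1712.0 and 1725.7 in Ctrl. Both cKO libraries were low, and the gene fell by 0.55 on the log2 scale (SE 0.05, adjusted p 5.48e-09 by limma), the largest fall of a proteasome gene. Its longest transcript had 37.0% GC, the lowest of the 19, and with both trends removed its log2 fold change was 0.16 (limma adjusted p 0.0183). Psmd14, the cap's own deubiquitinase, had 1962.9 and 2024.3 in cKO and 2271.0 and 2277.5 in Ctrl, a log2 fold change of -0.19 (limma adjusted p 0.00139) that became 0.00 with relative log expression scaling and 0.01 with both trends removed.

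Psmd5, a chaperone that helps to assemble the cap, was higher in cKO under each of these settings. It had 1893.5 and 1893.8 normalised reads in cKO and 1583.0 and 1579.1 in Ctrl, and the libraries of a genotype agreed closely. The log2 fold change was 0.26 (SE 0.05, adjusted p 9.64e-05 by limma) and 0.62 with both trends removed (limma adjusted p 1.18e-09). Psmf1, a binding partner first described as an inhibitor of the proteasome, had 1375.0 and 1439.3 in cKO and 1100.0 and 1151.5 in Ctrl. Its log2 fold change was 0.32 (limma adjusted p 4.22e-05), and 0.40 with both trends removed (limma adjusted p 5.29e-06).

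The interferon-responsive activators were higher in cKO. Psme1 and Psme2 encode the subunits of the ring that opens the barrel without ubiquitin and is linked to antigen processing. Psme1 had 1494.2 and 1425.1 normalised reads in cKO and 1067.0 and 1076.2 in Ctrl, a 1.36-fold rise (log2 fold change 0.45, limma adjusted p 3.75e-07). Psme2 had 886.7 and 1078.6 in cKO and 758.0 and 723.9 in Ctrl, with a log2 fold change of 0.40 (limma adjusted p 0.000113), the cKO libraries being farther apart than for Psme1. Neither rise was seen with both trends removed, where the log2 fold changes were -0.08 (limma adjusted p 0.405) and -0.06 (limma adjusted p 1). Psme4, the large nuclear activator, had 1112.9 and 1015.7 in cKO and 1524.0 and 1551.6 in Ctrl, and fell by 0.53 on the log2 scale (limma adjusted p 3.72e-08), with -0.07 when both trends were removed.

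Among the assembly chaperones of the barrel, Psmg1 had 531.5 and 464.0 normalised reads in cKO and 385.0 and 398.1 in Ctrl. Its log2 fold change of 0.34 (limma adjusted p 0.0027) lost its call without the first cKO library (0.24, limma adjusted p 0.062). Psmg4 had 548.7 and 539.9 in cKO and 430.0 and 434.7 in Ctrl, a log2 fold change of 0.33 (limma adjusted p 0.00153). Without the trends Psmg1 stood at -0.09 (limma adjusted p 1) and Psmg4 at -0.21 (limma adjusted p 0.0662). Psmc3ip, which is no proteasome subunit, was the 1 gene of the Psm names with a rise of at least 1.5-fold, at 249.8 and 246.8 in cKO and 163.0 and 147.6 in Ctrl (log2 fold change 0.67, limma adjusted p 7.06e-05), and 0.34 with both trends removed (limma adjusted p 0.0501). It shares 21.2% of its exonic bases with Mlx on the other strand, and the strand setting of the counting is not given in the sources used here. Without Psmc3ip, left out after its value was seen, 14 of the 18 proteasome genes were higher and their median was 0.24.

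**Figure D4:**
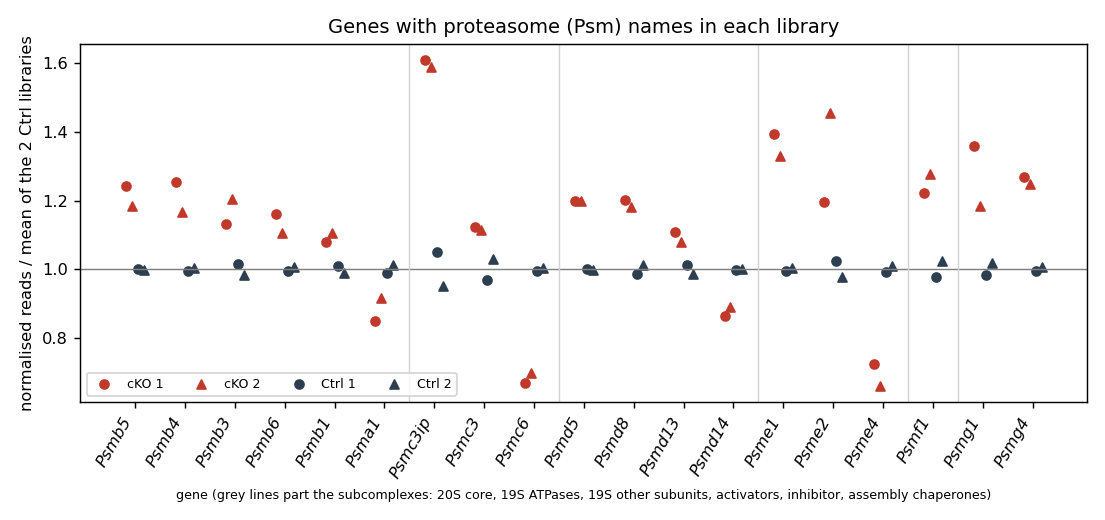
Normalised reads of each of the 19 proteasome genes in each cKO and Ctrl library, divided by the mean of the 2 Ctrl libraries (y axis, linear), with genes grouped by subcomplex along the x axis. Circles are replicate 1 and triangles replicate 2; 15 genes lie above 1 in both cKO libraries and 4 (Psmc6, Psme4, Psmd14 and Psma1) below it.

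Per kilobase of all annotated exons of a gene, Psmb5 had the highest value of the proteasome genes. For some of these genes that length is greater than the longest coding transcript, so the order by transcript length may differ. It stood at 3332 normalised reads per kilobase in cKO and 2745 ± 8.0 in Ctrl, and Psmc6 at 335.9 in cKO and 491.4 ± 2.8 in Ctrl (SD, n = 2). Psmd5 stood at 261.9 in cKO and 218.7 ± 0.4 in Ctrl, and Psme4 at 127.0 in cKO and 183.5 ± 2.3 in Ctrl. On this measure the values thus differed far more between these genes than between genotypes.

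The upstream 250 bases of the proteasome genes were searched for the core of the antioxidant response element, TGACNNNGC on either strand, since Nfe2l1 and Nfe2l2 are known to act on proteasome genes through such elements. RefSeq promoters (GRCm38.p6) were matched for 17 of the 19 proteasome genes, and 3 of the 17 (17.6%) held the letters, against 11.5% of 27025 RefSeq genes and 13.3% of 113 matched members. The CCAAT box (CCAAT, either strand) was found in 4 of 17 (23.5%), in 23% of the 113 matched members and in 37.5% of RefSeq genes. The motifs can overlap. The windows of Psmb5 and Psmc6 are shown because these genes moved in opposite directions and both hold the core, in capitals; they read 5′ to 3′ on each gene's strand.
Psmb5, chr14:54618009-54618067, minus strand: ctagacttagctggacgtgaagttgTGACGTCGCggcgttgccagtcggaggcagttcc
Psmc6, chr14:45329574-45329630, plus strand: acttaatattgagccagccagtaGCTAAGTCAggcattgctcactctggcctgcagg
The match in Psmb5 lies at -47 to -39 relative to the annotated start on the gene's strand, and that in Psmc6 at -227 to -219 on the other strand. A match of letters is a description of the window and not a binding site.

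Among E2 enzymes, the largest rise was that of Ube2l6, which is known as the E2 of the ubiquitin-like protein ISG15 and responds to interferon. It had 451.5 and 450.9 normalised reads in cKO and 250 and 262.7 in Ctrl, a 1.76-fold rise (0.81 on the log2 scale, SE 0.10, adjusted p 1.28e-07 by limma) that was 0.46 with both trends removed (limma adjusted p 7.48e-04). Ube2ql1 had 810.0 and 828.2 in cKO and 542.0 and 515.2 in Ctrl (log2 fold change 0.63, limma adjusted p 8.33e-08), but 0.07 with both trends removed. Ube2c, the E2 of the anaphase-promoting complex, had 564.2 and 566.0 in cKO and 419.0 and 460.2 in Ctrl (log2 fold change 0.36, limma adjusted p 7.46e-04), and -0.14 with both trends removed (limma adjusted p 0.368). It shares 22.8% of its exonic bases with Tnnc2 on the other strand.

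Ube2v2, a catalytically inactive E2 variant that works with Ube2n, was the lowest of the E2 group. It had 162.5 and 144.8 normalised reads in cKO and 342.0 and 355.3 in Ctrl, a fall of 1.18 on the log2 scale (SE 0.12, adjusted p 6.69e-09 by limma). With 35.1% GC it lay near the lower end of the members, and with both trends removed the value was -0.28 (limma adjusted p 0.0987). Ube2g1, an E2 that works with cullin-RING ligases, fell by 0.61 (limma adjusted p 1.99e-10), with 1429.7 and 1467.8 in cKO and 2176.0 and 2248.0 in Ctrl, and lost its call with both trends removed (-0.11, limma adjusted p 0.0938). Ube2k fell by 0.46 (limma adjusted p 2.06e-08), with 1648.5 and 1756.2 in cKO and 2372.0 and 2321.3 in Ctrl, and turned to 0.16 (limma adjusted p 0.0107) with both trends removed.

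Of the HECT ligases, Ube3a showed the largest difference. This ligase is the gene lost in Angelman syndrome (chr7:59228750-59311536, GRCm38), and it had 825.5 and 873.3 normalised reads in cKO and 1881.0 and 2009.8 in Ctrl. Both cKO libraries lay far below both Ctrl libraries, with a 2.29-fold lower mean in cKO (log2 fold change -1.19, SE 0.06, adjusted p 1.18e-14 by limma). Its exons are 20626 bases long, its longest transcript had 36.9% GC, and with both trends removed the value was -0.24 (limma adjusted p 0.00161). It also shares 8.7% of its exonic bases with Snhg14, the antisense RNA that silences its paternal copy in neurons, and without a strand setting the reads of the pair cannot be told apart.

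Nedd4l, a ligase known for removing the epithelial sodium channel from the membrane, was the highest of the HECT group. It had 1422.3 and 1367.0 normalised reads in cKO and 1069.0 and 1000.8 in Ctrl, with a log2 fold change of 0.43 (limma adjusted p 1.12e-06) that grew to 0.86 with both trends removed (limma adjusted p 2.03e-10). Herc3 behaved alike, at 1309.7 and 1391.9 in cKO and 1174.0 and 1142.3 in Ctrl (log2 fold change 0.22, limma adjusted p 0.00229, and 0.62 with both removed, limma adjusted p 1.54e-08). Ube3b had 4176.4 and 4080.7 in cKO and 3582.0 and 3858.7 in Ctrl (log2 fold change 0.15, limma adjusted p 0.00431). Its call was lost without the first Ctrl library (0.10, limma adjusted p 0.227), and its sign turned with both trends removed (-0.23, limma adjusted p 6.49e-05).

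The giant ligases Herc1 and Herc2 were lower in cKO. Herc1 had 1873.9 and 1809.6 normalised reads in cKO and 2464.0 and 2689.9 in Ctrl, a fall of 0.48 (limma adjusted p 1.32e-08). Herc2, a ligase of the DNA damage response, had 3354.2 and 3253.6 in cKO and 4105.0 and 4210.9 in Ctrl, a fall of 0.33 (limma adjusted p 1.83e-07). With both trends removed these values were 0.04 and -0.10, and neither was called (limma adjusted p 1 and 0.0513).

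Among RING-finger genes, Rnf122 fell most, and by nearly the same amount with both trends removed. It had 1425.6 and 1479.7 normalised reads in cKO and 5254.0 and 5444.9 in Ctrl, 3.68-fold less in cKO (log2 fold change -1.88, SE 0.04, adjusted p 6.8e-21 by limma). The value was -1.79 without the trends (limma adjusted p 9.8e-18). Rnf112, a brain-enriched RING-finger GTPase, had 141.3 and 157.8 in cKO and 293.0 and 297.3 in Ctrl. It fell by 0.98 (limma adjusted p 2.75e-07) although its longest transcript had 56.8% GC, and the value was -1.44 with both trends removed (limma adjusted p 9.99e-09). Rnf152, a lysosomal ligase that restrains mTORC1 signalling, had 119.2 and 129.3 in cKO and 233.0 and 211.8 in Ctrl, a fall of 0.83 (limma adjusted p 1.39e-05) that lost its call with both trends removed (-0.33, limma adjusted p 0.0982).

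Fewer RING-finger genes were higher in cKO, 7 of 29. Rnf135, which activates the RNA sensor RIG-I, had 268.6 and 249.2 normalised reads in cKO and 152.0 and 151.7 in Ctrl (log2 fold change 0.76, limma adjusted p 1.26e-05, and 0.32 with both trends removed, limma adjusted p 0.067). Rnf166 had 742.2 and 716.7 in cKO and 577.0 and 574.2 in Ctrl (log2 fold change 0.34, limma adjusted p 3.55e-04). Rnf19b had 2361.3 and 2177.4 in cKO and 1823.0 and 1819.4 in Ctrl (log2 fold change 0.32, limma adjusted p 8.98e-06). The signs of Rnf166 and Rnf19b turned with both trends removed, to -0.22 and -0.19.

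Of the 7 listed cullin scaffolds, 6 were lower in cKO and Cul7 was higher. Cul3, the scaffold of Kelch adaptors, had 1613.4 and 1552.1 normalised reads in cKO and 2395.0 and 2540.2 in Ctrl, a fall of 0.64 (SE 0.05, adjusted p 8.01e-11 by limma). Cul5, which works with SOCS-box proteins, had 818.1 and 920.8 in cKO and 1436.0 and 1360.2 in Ctrl, a fall of 0.69 (limma adjusted p 2.51e-09). Cul7, a scaffold that pairs with Fbxw8, had 2478.9 and 2395.7 in cKO and 1788.0 and 1877.4 in Ctrl, a 1.33-fold rise (log2 fold change 0.41, limma adjusted p 9.65e-08). For each of the 3 the cKO and Ctrl libraries did not overlap, as for nearly all listed genes.

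The other cullins differed less. Cul4b, the X-linked partner of Ddb1, had 738.1 and 681.1 normalised reads in cKO and 958.0 and 1011.0 in Ctrl, a fall of 0.47 (limma adjusted p 2.62e-06), and its paralogue Cul4a 2656.1 and 2648.5 in cKO and 3160.0 and 2997.3 in Ctrl, a fall of 0.21 (limma adjusted p 2.11e-04). Cul2, the scaffold of the von Hippel-Lindau ligase, had 957.8 and 999.1 in cKO and 1286.0 and 1261.5 in Ctrl, a fall of 0.38 (limma adjusted p 6.9e-06). Cul1, the scaffold of F-box adaptors, had 1775.1 and 1768.0 in cKO and 2253.0 and 2196.1 in Ctrl, a fall of 0.33 (limma adjusted p 2.73e-06). Cul7 had 59.1% GC and the lowest 3 values belonged to Cul5, Cul3 and Cul4b with 39.0%, 38.5% and 41.0%. With both trends removed Cul4a alone of the 7 was called (-0.16, limma adjusted p 0.00572), and the other 6 lay between -0.08 and 0.12.

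F-box adaptors, the target-binding parts of Cul1 ligases, were lower in 15 of 22 cases. Fbxo32 (atrogin-1), known for its induction in wasting muscle, fell most of all named members. It had 391.9 and 388.0 normalised reads in cKO and 1563.0 and 1729.8 in Ctrl, 4.22-fold less in cKO (chr15:58175879-58214932, GRCm38; log2 fold change -2.07, SE 0.07, adjusted p 8.79e-18 by limma). With both trends removed the value was -1.77 (limma adjusted p 3.92e-14), so the gene kept most of its difference.

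The highest F-box values were modest. Fbxw9 had 815.7 and 741.6 normalised reads in cKO and 507.0 and 476.5 in Ctrl (log2 fold change 0.66, limma adjusted p 1.09e-07, and 0.28 with both trends removed, limma adjusted p 0.00744). Fbxo36 had 478.5 and 401.1 in cKO and 272.0 and 307.5 in Ctrl (log2 fold change 0.60, limma adjusted p 3.37e-05, and 0.32 with both removed, limma adjusted p 0.0335). Fbxo4, an adaptor linked to the turnover of cyclin D, had 449.9 and 418.9 in cKO and 334.0 and 304.4 in Ctrl (log2 fold change 0.44, limma adjusted p 3.77e-04, and 0.08 with both removed, limma adjusted p 1).

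Kelch adaptors of Cul3 were lower in 12 of 14 cases, led by Klhl2. Klhl2 (Mayven) binds actin and directs Cul3 to WNK kinases, and it had 1165.1 and 1140.3 normalised reads in cKO and 4161.0 and 3934.0 in Ctrl. That is 3.51-fold less in cKO (log2 fold change -1.81, SE 0.05, adjusted p 6.55e-20 by limma), and -1.38 with both trends removed (limma adjusted p 3.27e-15). Klhl28 had 316.0 and 364.3 in cKO and 789.0 and 709.6 in Ctrl, a fall of 1.14 (limma adjusted p 9.07e-11) of which -0.30 was left with both trends removed (limma adjusted p 0.0136). These falls were larger than that of their scaffold Cul3, with no test of that difference.

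Of the deubiquitinases, Otud7b (Cezanne), an OTU-family enzyme known for restraining NF-κB signalling, was the lowest. It had 1886.9 and 1947.2 normalised reads in cKO and 4474.0 and 4508.2 in Ctrl, 2.34-fold less in cKO (log2 fold change -1.23, SE 0.04, adjusted p 1.5e-17 by limma). It was -1.03 without the trends (limma adjusted p 2.65e-14). Usp16, which takes ubiquitin off a core histone, had 393.6 and 375.0 in cKO and 812.0 and 837.9 in Ctrl, a fall of 1.10 (limma adjusted p 1.51e-11). Usp34, a very large enzyme linked to Wnt signalling, had 1208.4 and 1192.5 in cKO and 2302.0 and 2364.1 in Ctrl, a fall of 0.96 (limma adjusted p 5.75e-14), and shares 11.6% of its exonic bases with Ahsa2 on the other strand. With both trends removed Usp16 and Usp34 stood at -0.33 and -0.25 and were still called (limma adjusted p 0.00196 and 3.08e-04).

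The 5 deubiquitinases that were higher in cKO were so by small amounts. Usp2 had 1148.0 and 1240.0 normalised reads in cKO and 943.0 and 906.1 in Ctrl (log2 fold change 0.37, limma adjusted p 2.25e-05). Usp21 had 986.3 and 929.1 in cKO and 757.0 and 824.7 in Ctrl (log2 fold change 0.28, limma adjusted p 0.00137), a call lost without the first Ctrl library (0.21, limma adjusted p 0.0518). Usp5, which takes apart free ubiquitin chains, had 4774.1 and 4690.6 in cKO and 4137.0 and 4194.7 in Ctrl (log2 fold change 0.18, limma adjusted p 2.42e-04). Without the trends these were 0.06, -0.16 and -0.21, so that 2 of the 3 signs turned. Of the 34 deubiquitinases 1 (2.94%) was then called higher and 18 (52.9%) lower, against 28.3% and 40.9% of all listed genes.

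**Figure D5:**
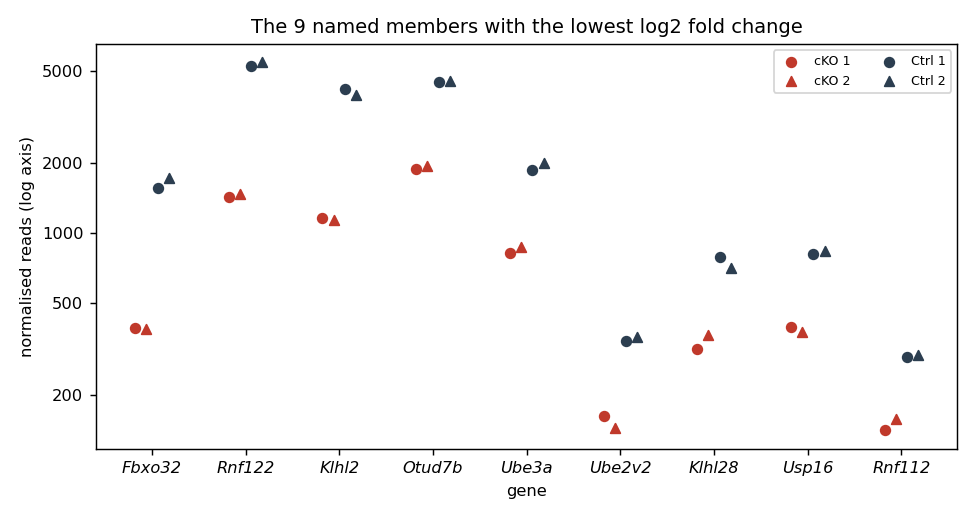
Normalised reads (log axis) in each library of the 9 named members with the lowest log2 fold changes, cKO left of Ctrl; circles are replicate 1 and triangles replicate 2. All cKO points lie below all Ctrl points of the same gene, from 4.22-fold for Fbxo32 to 1.97-fold for Rnf112.

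Among the 9 named members with the lowest log2 fold changes, the values with both trends removed were of separate sizes. Fbxo32, Rnf122, Klhl2, Otud7b and Rnf112 stood between -1.79 and -1.03 then, with GC contents of 45.8%, 50.0%, 44.6%, 48.5% and 56.8%. Ube3a, Ube2v2, Klhl28 and Usp16, with 36.9%, 35.1%, 36.1% and 38.3%, stood between -0.33 and -0.24. The first 5 were thus large with and without the trends, and most of the difference of the last 4 went with the trends.

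The rest of the pathway was read from lists of genes outside these names. Of 49 other ubiquitin ligases 31 were listed, 6 higher and 25 lower (median log2 fold change -0.48), among them Mdm4, a restrainer of p53, with 596.9 and 606.3 normalised reads in cKO and 1345.0 and 1441.7 in Ctrl, a fall of 1.21 (limma adjusted p 7.54e-14), and Mib1, a ligase of Notch ligands, which fell by 0.94 (limma adjusted p 1.06e-14). Uhrf1, a ligase that maintains DNA methylation, rose by 0.56 (limma adjusted p 4.11e-07) and Stub1, the ligase partner of heat-shock chaperones, by 0.33 (limma adjusted p 7.59e-05). Without the trends this list had a median of -0.17, with 5 called higher and 16 lower. Mdm4 and Mib1 then stood at -0.63 (limma adjusted p 7.86e-08) and -0.41 (limma adjusted p 1.19e-07), Uhrf1 at 0.21 (limma adjusted p 0.0295), and Stub1 turned to -0.28 (limma adjusted p 6.35e-04). Of 24 other deubiquitinases 14 were listed, 3 higher and 11 lower (median -0.68). Mysm1, which acts on histones, fell by 1.29 (limma adjusted p 1.08e-09) and Cyld, which restrains NF-κB signalling, by 1.10 (limma adjusted p 6.99e-13), while Uchl1 rose by 0.45 (limma adjusted p 1.77e-08) and Eif3h by 0.22 (limma adjusted p 1.47e-05). Without the trends its median was -0.34, with 0 called higher and 9 lower. Mysm1 and Cyld then stood at -0.62 (limma adjusted p 3.71e-04) and -0.55 (limma adjusted p 7.31e-07), while Uchl1 turned to -0.11 (limma adjusted p 0.0778) and Eif3h to -0.19 (limma adjusted p 9e-05). Both lists thus held more falls than rises as deposited and with the trends removed, with smaller medians in the second case. So did all listed genes, with 46.7% higher and 53.3% lower as deposited, and 28.3% and 40.9% with both trends removed. The falls were 80.6% of the listed ligases and 78.6% of the listed deubiquitinases as deposited, and 51.6% and 64.3% with both removed.

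Lists of genes that tag, assemble or serve the machinery held more even counts as deposited. Of 13 ubiquitin and E1 genes 5 were listed, 2 higher and 3 lower, with Nedd8, the modifier that activates cullins, up by 0.34 (limma adjusted p 6.02e-07), Sae1 up by 0.31 (limma adjusted p 3.29e-06), and Uba3, the E1 subunit for Nedd8, lower at -0.61 (limma adjusted p 1.57e-09), like Uba6 at -0.47 (limma adjusted p 1.23e-04). Removing both trends turned Nedd8 to -0.18 (limma adjusted p 0.00106) and Uba6 to 0.32 (limma adjusted p 0.00996), and left Sae1 at -0.07 (limma adjusted p 0.403) and Uba3 at -0.05 (limma adjusted p 0.967). Of 20 cullin-RING cofactors 12 were listed, 6 higher and 6 lower, and Dcun1d1, which helps to attach Nedd8 to cullins, had 497.2 and 497.2 normalised reads in cKO and 967.0 and 958.1 in Ctrl, a fall of 0.95 (limma adjusted p 3.56e-11). Dcun1d4 fell by 0.80 (limma adjusted p 2.88e-09), while the E2 Cdc34 rose by 0.45 (limma adjusted p 2.24e-07) and Cand2, an adaptor exchange factor, by 0.45 (limma adjusted p 1.08e-04). The counts of this list were not even with both trends removed, at 1 higher (8.33%) and 8 lower (66.7%). Of all listed genes 28.3% were then higher and 40.9% lower. Dcun1d1 then stood at -0.29 (limma adjusted p 0.0022) and Dcun1d4 at -0.37 (limma adjusted p 6.64e-04), Cdc34 turned to -0.18 (limma adjusted p 0.00957), and Cand2 was at 0.07 (limma adjusted p 1). Of 9 genes of the COP9 signalosome, which takes Nedd8 off again, 5 were listed, 4 higher and 1 lower, with Cops7a at 0.49 (limma adjusted p 1.82e-08), Gps1 at 0.30 (limma adjusted p 4.26e-06) and Cops2 at -0.72 (limma adjusted p 5.51e-11). Without the trends Cops7a stood at 0.01 and Cops2 at -0.03 (limma adjusted p 1 for each), and Gps1 turned to -0.19 (limma adjusted p 0.0011). Of 16 genes of the anaphase-promoting complex 5 were listed, 2 higher and 3 lower, from Anapc11 at 0.40 (limma adjusted p 1.5e-07) to Cdc27 at -0.90 (limma adjusted p 1.07e-12), and these stood at 0.13 (limma adjusted p 0.0305) and -0.28 (limma adjusted p 2.55e-04) without the trends.

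Partners of the proteasome were listed in 6 of 14 cases, 3 higher and 3 lower. Pomp, the chaperone that matures the barrel, had 3212.9 and 3304.7 normalised reads in cKO and 2740.0 and 2616.6 in Ctrl, a rise of 0.28 (limma adjusted p 5.94e-06) that was 0.26 with both trends removed (limma adjusted p 2.85e-05). Nfe2l1, the transcription factor of proteasome genes, had 6198.8 and 6054.0 in cKO and 5177.0 and 5136.4 in Ctrl, a rise of 0.25 (limma adjusted p 2.75e-06), and -0.06 with both trends removed. Ddi2, the protease that activates Nfe2l1, had 723.4 and 782.0 in cKO and 1210.0 and 1305.2 in Ctrl, a fall of 0.74 (limma adjusted p 8.74e-10) that was -0.53 with both removed (limma adjusted p 9.64e-07). Nfe2l1 and its protease thus differed in opposite directions as deposited. Zfand5, a proteasome activator known from muscle, fell by 0.57 (limma adjusted p 2.93e-10), and was at 0.05 with both trends removed (limma adjusted p 0.799).

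Of 21 genes of the unfoldase VCP and of ubiquitin shuttles 11 were listed, 2 higher (18.2%) and 9 lower (81.8%, median -0.25). Of all listed genes 46.7% were higher and 53.3% lower. Sqstm1 (p62), the autophagy receptor for ubiquitin chains, had 8258.0 and 7975.1 normalised reads in cKO and 7199.0 and 6910.0 in Ctrl, a rise of 0.20 (limma adjusted p 3.46e-05), and Derl1, of the endoplasmic reticulum exit channel, rose by 0.18 (limma adjusted p 5.77e-04). Without the trends Sqstm1 turned to -0.22 (limma adjusted p 1.12e-05) and Derl1 was at -0.01 (limma adjusted p 1). The list then had 0 called higher and 6 lower (54.5%), against 28.3% higher and 40.9% lower of all listed genes. The VCP adaptors Ubxn7 and Ubxn2b fell by 0.75 (limma adjusted p 1.37e-10) and 0.67 (limma adjusted p 3.77e-07), and stood at -0.02 and -0.12 with both trends removed, with no call.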

How the data were processed

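Per the file headers, the table deposited by the authors holds, for each gene, a normalised signal in every library, a log2 fold change, a p-value and adjusted p-value, and gene coordinates, length and type. DESeq2 and the build mm10 (GRCm38) are named in the submitters' processing notes. The aligner, the counter, its strand setting and the annotation are not given in the sources used here. The deposited signal values were whole multiples of 1 step per library, so whole reads were recovered for 100% of the 6940 values within 0.01 read. They are read counts over a size factor, and all 6940 genes have an adjusted p-value under 0.05 in the authors' deposited table (largest 0.0499). The relation of p-value to adjusted p-value gave 17347 genes behind that adjustment.

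Genotypes were compared with limma 3.58.1 in R 4.3.3 on log2(value + 1), with a variance trend, no other term than genotype, and 2 residual degrees of freedom. A gene needed a value of 1 in 2 libraries, and all 6940 passed. The variance was pooled over genes selected for their difference, so the p-values may be too low, and a new call of the same libraries is not independent evidence. GC content and transcripts came from GENCODE vM21, where all 150 members were found, 144 with the same start and end. Trends with GC content and log2 length were removed per library by loess (span 0.5), keeping the library's mean. Alternatives were edgeR 4.0.16 and DESeq2 1.42.0 on the recovered reads, other scalings, pseudocounts of 0.5 and 5, filters, and leaving out each library. The fits were tested on simulated data.

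Named members were the 3 highest and 3 lowest of each group with a mean value of at least 100, all cullins, and the highest and lowest of each proteasome subcomplex. In each list of pathway or marker genes, these were the 2 highest and 2 lowest, of which the text gives the ones it describes. Members, groups and lists were chosen with earlier results of these data known. Psme2, Ube2d2a and Rnf113a2 have near-identical copies elsewhere in the genome, and their counts are uncertain. The replicate numbers were checked for pairing: the differences between replicates 1 and 2 correlated at 0.013 between the genotypes over 6940 genes, and the numbers were not used as pairs.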

Additional observations from a re-analysis of the deposited data

How the results depend on the processing

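Calls of the members were the same under other pseudocounts, without the filter and with adjustment over the listed genes. Leaving out 1 library gave 41 to 45 members higher and 103 to 105 lower, 3137 to 3228 listed genes higher and 3588 to 3684 lower, and medians of 0.24 to 0.26 (proteasome), -0.45 to -0.39 (ligases), -0.48 to -0.44 (deubiquitinases) and -0.26 to -0.24 (E2 enzymes). The proteasome minus ligase distance was then 0.65 to 0.69, and proteasome minus deubiquitinase 0.70 to 0.72. Without a variance trend 15 of the 150 members lost their calls, leaving 36 higher and 99 lower, beside 2961 and 3501 listed genes. Among the named members Psma1, Psme2 and Ube3b lost their calls (limma adjusted p 0.0784, 0.051 and 0.132).

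No pairing by replicate number was seen. The replicate block left 45 members higher and 105 lower, beside 3242 and 3696 listed genes. The block with both trends removed gave 24 members higher and 68 lower, and 2006 listed genes higher and 2890 lower. Its medians, distances and log2 fold changes were those given below for both trends removed.

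Other scalings moved the medians of proteasome, ligases, deubiquitinases and E2 enzymes together. They were 0.44, -0.20, -0.25 and -0.074 with relative log expression factors (-0.072 for the last with DESeq2, the others alike), 0.32, -0.32, -0.38 and -0.19 with edgeR, and 0.32, -0.33, -0.38 and -0.20 scaled to listed reads. DESeq2 called 61 members and 2521 listed genes lower. With relative log expression factors and with DESeq2 the signs of Psma1 (0.011 and 0.010) and Psmd14 (0.001 and 0.000) turned, and Cul4a lost its call (adjusted p 1 in both). Cul1 and Cul2 lost theirs with DESeq2 (adjusted p 0.108 and 0.0736). Psma1 lost its call with edgeR and scaled to listed reads (adjusted p 0.0545 and 0.0662).

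Removing the GC trend left 27 members and 1997 listed genes higher. The medians were 0.069, -0.17, -0.31 and 0.061, the last turned, and the distances 0.24 and 0.38. Of the 49 named members 19 turned: Cul1 0.053, Cul2 0.22, Cul3 0.078, Cul4b 0.10, Cul5 0.002, Cul7 -0.089, Psma1 0.21, Psmb5 -0.18, Psmc6 0.26, Psmd14 0.25, Psme1 -0.006, Psmg4 -0.094, Rnf166 -0.14, Rnf19b -0.14, Ube2c -0.072, Ube2k 0.13, Ube3b -0.30, Usp21 -0.20 and Usp5 -0.26.

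With the length trend removed, 26 members and 2375 listed genes were higher. The medians were -0.13 (turned) for the proteasome, -0.30 for deubiquitinases and -0.22 for E2 enzymes, and the distances 0.24 and 0.17. The HECT median turned to 0.21. So did Herc1 (0.23), Herc2 (0.18), Psmb5 (-0.22), Psme2 (-0.026), Psmg1 (-0.12), Psmg4 (-0.21) and Rnf166 (-0.061).

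With both removed, 22 members were higher and 68 lower, and 1961 listed genes higher and 2841 lower. The medians were -0.081 (turned), -0.18, -0.20 and -0.009, and the distances 0.10 and 0.12. The HECT median turned to 0.035. Of the named members 18 turned: Cul2 0.12, Cul3 0.017, Cul5 0.022, Herc1 0.035, Psmb5 -0.29, Psmc6 0.16, Psmd14 0.005, Psme1 -0.084, Psme2 -0.062, Psmg1 -0.087, Psmg4 -0.21, Rnf166 -0.22, Rnf19b -0.19, Ube2c -0.14, Ube2k 0.16, Ube3b -0.23, Usp21 -0.16 and Usp5 -0.21. The cause was not tested. With 2 libraries a genotype and only called genes listed, members with smaller differences were not analysed here.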
